A study of Mus musculus with 3 samples.

Results

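The forkhead factors are transcription factors that bind DNA through a winged-helix domain, and 10 of them were followed here: Foxc1, Foxc2, Foxd1, Foxf1, Foxf2, Foxs1, Foxp1, Foxp2, Foxo1 and Foxo3. The genes were chosen by name, and each was given a window of its body plus 20000 bp on either side in the mouse build mm10. In the E12.5 library 252 of 190443 peaks lay in these windows. The E14.5 library had 134 of 102459 there, and the E16.5 library 258 of 213613. Merged across the libraries, they made 308 of 266531 regions. The windows of Foxf1 and Foxc2, neighbours on chromosome 8, shared 2 of these regions.

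Nuclei came from tdTomato+ mesenchymal progenitors of C57BL/6J embryos carrying Hic1CreERT2/CreERT2;Rosa26LSLtdTomato/tdTomato, in which cells that express Hic1 when tamoxifen is given keep the reporter. All dams had 7.5 mg tamoxifen by gavage at embryonic day 10, so the label marks descendants of cells active at that time and not every mesenchymal cell. Sorted cells lacked CD45, CD117, CD31, CD11b, F4/80 and Ter119, and forelimb pairs were pooled. There was 1 single-nucleus ATAC library a stage, so no test between stages is possible and every interval below covers counting error only. Stage cannot be told apart from the library, from the elbow segment taken at E16.5 in place of the forelimb, or from the Dispase digestion used at E12.5 in place of Collagenase A, Pronase and DNase.

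The libraries held 8294, 20023 and 14048 nuclei with a median of 6004, 8575 and 26694 counts each. Regions at promoters took 44.6%, 57.5% and 41.7% of the counts, so the middle library stood apart. Barcodes found in more than 1 library made up 3.04% to 4.32% of a library. At matched depth, the promoters of the 5 mesenchyme markers Prrx1, Twist1, Twist2, Pdgfra and Hic1 were open in 3.97% to 14.4% of nuclei. Of the markers of endothelial, blood, epithelial, myogenic and Schwann cells, 8 had a promoter interval common to the libraries, open in 0.0804% to 2.88% of nuclei; Pecam1, Tie1, Ptprc, Spi1, Krt5, Krt14 and Myf5 had none.

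FOXC1 and FOXC2 act in skeletal and vascular mesenchyme. FOXF1 and FOXF2 are hedgehog-responsive factors of mesenchyme, FOXD1 marks stromal progenitors and FOXS1 is expressed in perivascular cells. FOXP1 and FOXP2 are mostly repressors, and FOXO1 and FOXO3 are held out of the nucleus by insulin and growth factor signalling. Their windows hold both promoters, where transcription starts, and distal elements, where cell type-specific factors often bind.

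By GENCODE vM21, Foxc1 lies at chr13:31806633-31812476, Foxf2 at chr13:31625816-31631403 and Foxd1 at chr13:98354242-98359305, all on the plus strand of chromosome 13. Foxf1 lies at chr8:121084386-121088144 and Foxc2 at chr8:121116171-121118895, also on the plus strand. Foxp1 at chr6:98925338-99522721, Foxo3 at chr10:42181841-42276755 and Foxs1 at chr2:152931898-152933208 are on the minus strand, and Foxp2 at chr6:14901349-15441977 and Foxo1 at chr3:52268336-52353221 on the plus strand. The long Foxp1 locus held 138 regions, 52 of them common to the libraries. Foxp2 held 42 with 17 common, Foxo3 34 with 10, and Foxo1 31 with 4. The compact genes held fewer: 15 with 3 common at Foxd1, 14 with 8 at Foxs1, 10 with 6 at Foxf1, 10 with 5 at Foxc1, 9 with 5 at Foxc2 and 7 with 5 at Foxf2.

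Before the values, 6 stretches are given from elements whose levels differed between E12.5 and E16.5, with the promoter of Foxd1 for comparison. They were picked after their values were seen, to show each locus with such elements. At Foxp1, those at 247.2 kb and 387.0 kb also differed in gates on lineage genes, described below. Each is 300 bases of RefSeq GRCm38.p6 on the plus strand. The elements are centred on the longest stretch called in every library, and the promoter stretch lies around the start site. Capitals mark matches, on either strand, to 7 motifs: forkhead GTAAACA, AP-1 TGANTCA, RUNX AACCACA, E-box CAGATG, homeodomain TAATTA, SOX ACAATG and TEAD GGAATG. The first lay 17.9 kb upstream of Foxd1, the next 3 within introns of Foxp1, and the others in introns of Foxp2 and Foxo3.
Foxd1 upstream, chr13:98336198-98336497: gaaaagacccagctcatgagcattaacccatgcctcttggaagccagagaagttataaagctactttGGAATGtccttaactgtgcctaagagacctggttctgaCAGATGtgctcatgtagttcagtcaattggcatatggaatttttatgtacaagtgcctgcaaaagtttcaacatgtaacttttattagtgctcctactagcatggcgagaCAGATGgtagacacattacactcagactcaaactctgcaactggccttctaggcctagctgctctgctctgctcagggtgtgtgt
Foxp1 intron 362.6 kb from the start, chr6:99159966-99160265: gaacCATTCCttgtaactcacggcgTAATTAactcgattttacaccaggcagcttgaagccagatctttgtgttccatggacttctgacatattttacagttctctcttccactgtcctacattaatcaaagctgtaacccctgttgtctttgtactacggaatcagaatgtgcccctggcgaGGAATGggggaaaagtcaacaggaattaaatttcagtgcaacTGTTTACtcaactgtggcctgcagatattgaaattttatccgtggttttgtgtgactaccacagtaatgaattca
Foxp1 intron 247.2 kb from the start, chr6:99275387-99275686: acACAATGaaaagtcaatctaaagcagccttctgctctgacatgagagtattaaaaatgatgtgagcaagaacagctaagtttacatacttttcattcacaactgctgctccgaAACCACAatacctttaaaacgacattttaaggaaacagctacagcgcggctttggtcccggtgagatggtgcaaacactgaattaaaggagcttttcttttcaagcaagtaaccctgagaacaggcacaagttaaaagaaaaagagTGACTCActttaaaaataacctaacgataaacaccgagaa
Foxp1 intron 387.0 kb from the start, chr6:99135617-99135916: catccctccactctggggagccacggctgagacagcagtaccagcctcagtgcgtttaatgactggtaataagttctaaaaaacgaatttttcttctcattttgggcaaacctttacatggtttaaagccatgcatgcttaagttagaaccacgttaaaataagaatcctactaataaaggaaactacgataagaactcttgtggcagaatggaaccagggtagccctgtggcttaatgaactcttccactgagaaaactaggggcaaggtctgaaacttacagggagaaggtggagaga
Foxp2 intron 420.3 kb from the start, chr6:15321542-15321841: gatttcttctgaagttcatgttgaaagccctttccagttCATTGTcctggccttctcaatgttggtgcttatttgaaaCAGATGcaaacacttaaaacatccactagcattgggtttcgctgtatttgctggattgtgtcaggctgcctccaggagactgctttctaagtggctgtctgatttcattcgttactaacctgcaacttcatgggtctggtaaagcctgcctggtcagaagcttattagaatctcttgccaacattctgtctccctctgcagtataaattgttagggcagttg
Foxo3 intron 65.2 kb from the start, chr10:42211378-42211677: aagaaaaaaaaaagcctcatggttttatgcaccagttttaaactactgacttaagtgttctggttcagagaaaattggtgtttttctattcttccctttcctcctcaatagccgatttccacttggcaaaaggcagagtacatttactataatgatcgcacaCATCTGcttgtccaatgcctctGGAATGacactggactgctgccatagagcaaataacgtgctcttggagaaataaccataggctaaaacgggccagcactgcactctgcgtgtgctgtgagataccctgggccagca
Foxd1 promoter, chr13:98353995-98354294: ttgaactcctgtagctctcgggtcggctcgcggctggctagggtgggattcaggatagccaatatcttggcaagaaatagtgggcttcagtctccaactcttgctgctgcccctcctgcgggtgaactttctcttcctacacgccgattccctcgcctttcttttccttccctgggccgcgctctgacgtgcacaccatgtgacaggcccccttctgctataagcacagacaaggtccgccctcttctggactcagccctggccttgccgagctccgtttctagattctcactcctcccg

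The element upstream of Foxd1 held 2 E-box matches and 1 TEAD match. The Foxp1 stretch at 362.6 kb held 1 forkhead, 1 homeodomain and 2 TEAD matches, and that at 247.2 kb held 1 AP-1, 1 RUNX and 1 SOX match. The Foxp1 stretch at 387.0 kb and the Foxd1 promoter held no match to these letters. Among 64691 distal windows of the same length, 4.47% held the forkhead letters, 13.7% AP-1, 7.95% RUNX, 32.8% E-box, 7.33% homeodomain, 13.6% SOX and 23.2% TEAD. Matches are a description of letters and not of binding.

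The question of the stage comparison is whether the chromatin around these genes was more or less open as the limb matured. Values are counts per 1000000 (CPM), with both the cut sites and their library total taken over regions with a peak in all libraries. In stage order, Foxp1, the longest locus, had the highest level, with 562, 442 and 477 CPM. Foxo3 followed with 184, 226 and 213 CPM, and Foxp2 with 180, 167 and 154 CPM. Since windows differ in length and in number of regions, these levels order the loci and not the activity of the genes.

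**Figure D1:**
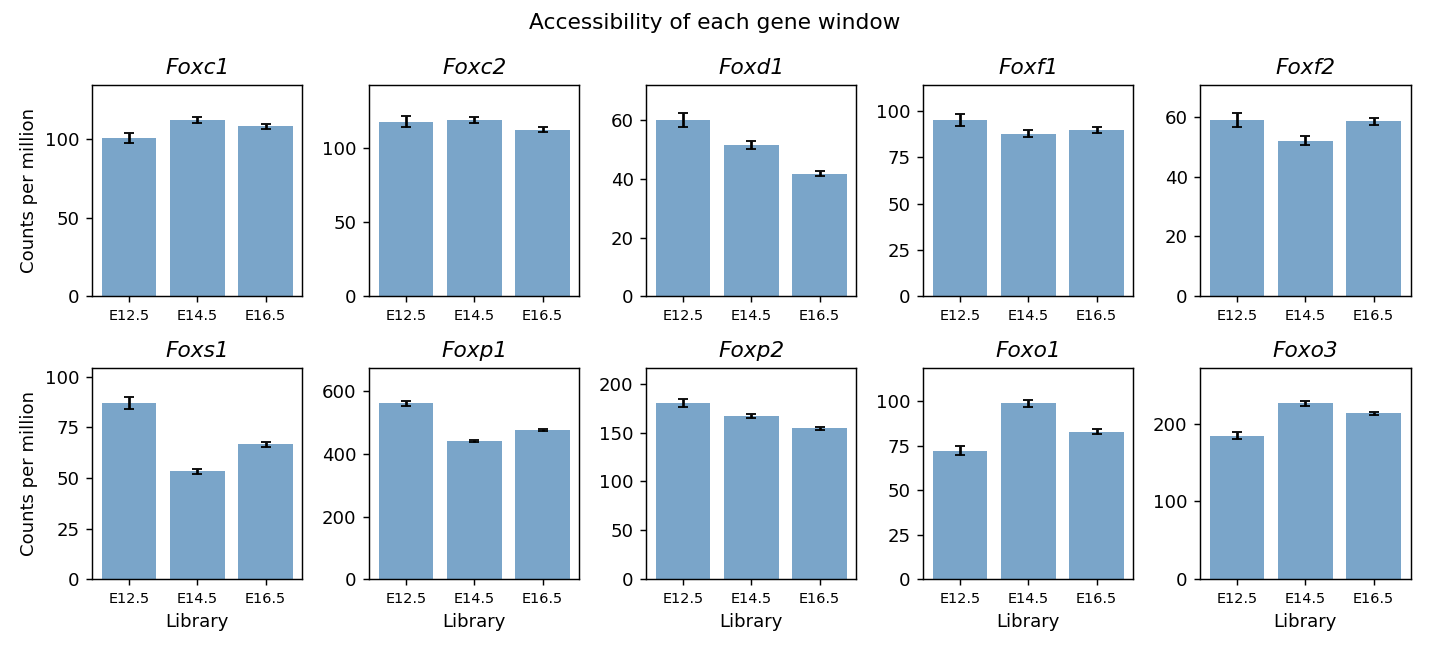
CPM in each gene window (y axis, from 0, scaled by panel) in the library of each stage (x axis). Error bars are 95% Poisson intervals of the fragments counted. Foxs1 had its lowest bar at E14.5 and Foxd1 its lowest at E16.5.

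Among the skeletal and vascular factors, Foxc1 had 101, 112 and 108 CPM and Foxc2 had 118, 119 and 112 CPM. The log2 ratio of E16.5 over E12.5 was 0.10 for Foxc1, with a 95% interval of 0.05 to 0.15, and -0.07 for Foxc2, with an interval of -0.11 to -0.02. Both moved with the called width: over the bases called in all 3 libraries, counts being spread evenly within each peak, Foxc1 had 0.01 and Foxc2 turned to 0.27. The Foxc2 value includes other genes, since the start sites of Foxl1, another forkhead gene, and Mthfsd lie in its window. The hedgehog-responsive pair had 94.9, 87.6 and 89.6 CPM for Foxf1 and 58.8, 52.0 and 58.4 CPM for Foxf2. Their ratios of E16.5 over E12.5 were -0.08 and -0.01, and turned to 0.13 and 0.20 over the bases called in all libraries. The Foxf1 value also takes in the Mthfsd promoter region. Without regions at other genes' start sites, the Foxf1 ratio of E16.5 over E12.5 was -0.16. For E14.5 over E12.5 it was -0.40, beside -0.11 with those regions.

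Foxd1 had 60.0, 51.4 and 41.8 CPM, with intervals that do not overlap. Its log2 ratio of E16.5 over E12.5 was -0.52, with an interval of -0.59 to -0.45, the lowest of the 10 windows but short of 1.5-fold. It depended on the regions counted: it was -0.34 over the bases called in all libraries, -0.69 per kb of called width and -1.28 over regions away from promoters, but 0.10 over promoter regions and -0.02 with 50000 bp on either side. The value away from promoters rested on 1 upstream and 1 downstream interval. In the Foxd1 window, regions with a peak of every library held 85.0% of counts at E12.5 and 67.3% at E16.5. The window had 6 regions called at E16.5 alone, 1 at E12.5 alone and 5 at E12.5 and E16.5 but not E14.5. The main ratio leaves all of these out. Foxs1 had 86.9, 53.2 and 66.5 CPM. Its ratio of E14.5 over E12.5 was -0.71, with an interval of -0.77 to -0.64, and it was the only window past 1.5-fold in any step. That value moved with the called width: over the bases called in all 3 libraries it was -0.21, and per kb of called width it was 0.26. The start site of Dusp15 also lies in the Foxs1 window, and without it the ratio was -0.89. At the Foxs1 promoter, with 6.25, 2.14 and 4.65 CPM, the ratio was -1.55, with an interval of -1.81 to -1.29. It stayed past 1.5-fold at -1.20 over the bases called in all libraries and -0.81 per kb. Those last values are not separate checks: with counts spread evenly within the peak, they differ only by an amount fixed by the step.

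Of the insulin-restrained factors, Foxo1 had 72.3, 98.9 and 82.8 CPM, and its ratio of E14.5 over E12.5 was 0.45, with an interval of 0.39 to 0.51. That ratio moved with the regions counted: it was 0.13 over the bases called in all 3 libraries, -0.03 with every peak of each library in the window and 1.18 over regions away from promoters. Regions with a peak of every library held 63.4% of the E12.5 counts of the window and all of those at E14.5. Foxo3 had a ratio of 0.29 for the same step and 0.21 for E16.5 over E12.5, but 0.00 and 0.07 over the bases called in all libraries. Over regions away from promoters the same ratios were 0.57 and 0.88, the second past 1.5-fold, and over promoter regions 0.07 and -0.17. The repressors Foxp1 and Foxp2 had ratios of E16.5 over E12.5 of -0.24 and -0.22, with intervals of -0.26 to -0.21 and -0.26 to -0.18. Over the bases called in all libraries they had -0.18 and -0.17.

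Counted by direction, 0 of the 10 windows were past 1.5-fold higher and 1 lower for E14.5 over E12.5, where 3.23% of 17531 autosomal coding genes were higher and 6.35% lower. None passed for E16.5 over E14.5, where 5.32% of genes were higher and 3.13% lower, nor for E16.5 over E12.5, where 5.07% were higher and 6.84% lower. The median log2 ratio of the 10 windows from E12.5 to E16.5 was -0.07, beside -0.01 over all genes, and 0.04 over the bases called in all libraries. Of the 34 other forkhead genes, 31 had a value, and 1 of them passed 1.5-fold for E16.5 over E12.5. The lowest ratios were -1.02 for Foxi2, from 4.12 to 2.03 CPM, -0.37 for Foxb2 and -0.37 for Foxn4. The highest were 0.55 for Foxk1, 0.44 for Foxd3 and 0.33 for Foxa3. Several of these values moved with the called width. Over the bases called in all libraries, Foxi2 had -0.36, short of 1.5-fold, Foxk1 had 0.20 and Foxd3 0.16, and the highest was Foxj3 at 0.47.

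The share of nuclei with a fragment was taken over the regions of a window with a peak in all libraries. Each nucleus was first thinned to 1074 fragments in such regions. At Foxd1 these regions held 85.0% of the window's counts at E12.5 and 67.3% at E16.5, as given above. In stage order, Foxd1 was open in 6.12%, 5.17% and 4.10% of nuclei, with exact binomial intervals of 5.54% to 6.75% and 3.78% to 4.45% at the first and last stage. Foxc1 had 8.29%, 10.7% and 11.1%, and Foxs1 9.11%, 5.52% and 6.79%. None of the 10 passed 1.5-fold from E12.5 to E16.5, where 6.28% of genes were higher and 6.65% lower. At its own promoter, Foxc1 had a fragment in 4.79%, 7.02% and 7.47% of nuclei, and the called width there was 7955, 5631 and 10357 bp. Over the bases called in all libraries, the log2 ratio of E16.5 over E12.5 at this promoter was -0.05. The Foxo3 promoter had a fragment in 11.9%, 14.7% and 11.8% of nuclei. The Foxs1 promoter was open in 0.707%, 0.320% and 0.573% of nuclei.

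Promoters and distal elements were then taken apart. Peaks of all libraries met in 113 of the 308 regions, or 36.7%, beside 31.8% of regions in the whole series. In stage order, the promoter of Foxd1 had 26.4, 32.9 and 27.7 CPM, that of Foxp1 54.3, 62.8 and 53.9 CPM, and that of Foxf1 31.0, 32.0 and 28.6 CPM. Across all promoter intervals of the series, the median log2 ratio was 0.21 from E12.5 to E14.5 and -0.24 from there to E16.5. Away from promoters the same medians were -0.36 and 0.32. A promoter level highest at E14.5, or a distal level lowest there, runs the same way as these medians. Over bases called in all libraries, 1 of 20 promoter intervals was past 1.5-fold higher at E16.5 than at E12.5 and 2 were lower, beside 7.33% and 8.75% of all promoter intervals. Of 92 intervals away from promoters, 17 were higher and 17 lower, beside 22.6% and 18.8% of all such intervals. These shares are near those of the whole series. An internal Foxp1 promoter, 359.6 kb from the gene start, went from 5.13 to 4.15 and 1.51 CPM. Another, at 494.5 kb, had 37.3, 49.6 and 39.1 CPM, and -0.59 for E16.5 over E12.5 over the bases called in all libraries.

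The region with the highest sum of the libraries' CPM was the gene's own promoter in 7 of the windows. For Foxc1 it had 57.2, 74.2 and 71.6 CPM in stage order, for Foxf2 19.6, 23.8 and 22.5, for Foxo1 59.4, 74.2 and 56.1, and for Foxp2 69.0, 84.6 and 58.7. All of these were highest at E14.5, the way the medians of all promoter intervals, given above, run. In the shared stretch of Foxf1 and Foxc2 it was the promoter of Mthfsd, with 30.4, 38.8 and 31.9 CPM. That region led by its level at E14.5: the Foxc2 promoter had 29.5, 28.5 and 32.1 CPM, that of Foxl1 35.9, 31.4 and 30.0, and that of Foxf1, given above, 31.0 at E12.5. Over the bases called in all libraries, the Foxc2 promoter had a log2 ratio of E16.5 over E12.5 of 0.73, and is the promoter interval counted as higher above. At Foxs1 it was an element 18.5 kb downstream of the gene start, with 23.7, 16.1 and 18.0 CPM. Among intervals of at least 20 CPM at E12.5 or E16.5, the one with the largest rise at Foxp1 was intronic, 194.2 kb from the start, with 12.1, 7.60 and 21.0 CPM, but its log2 ratio over the bases called in all libraries was -0.04. At Foxo3 it was an intronic interval at 72.5 kb, with 21.6, 26.1 and 26.8 CPM.

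**Figure D2:**
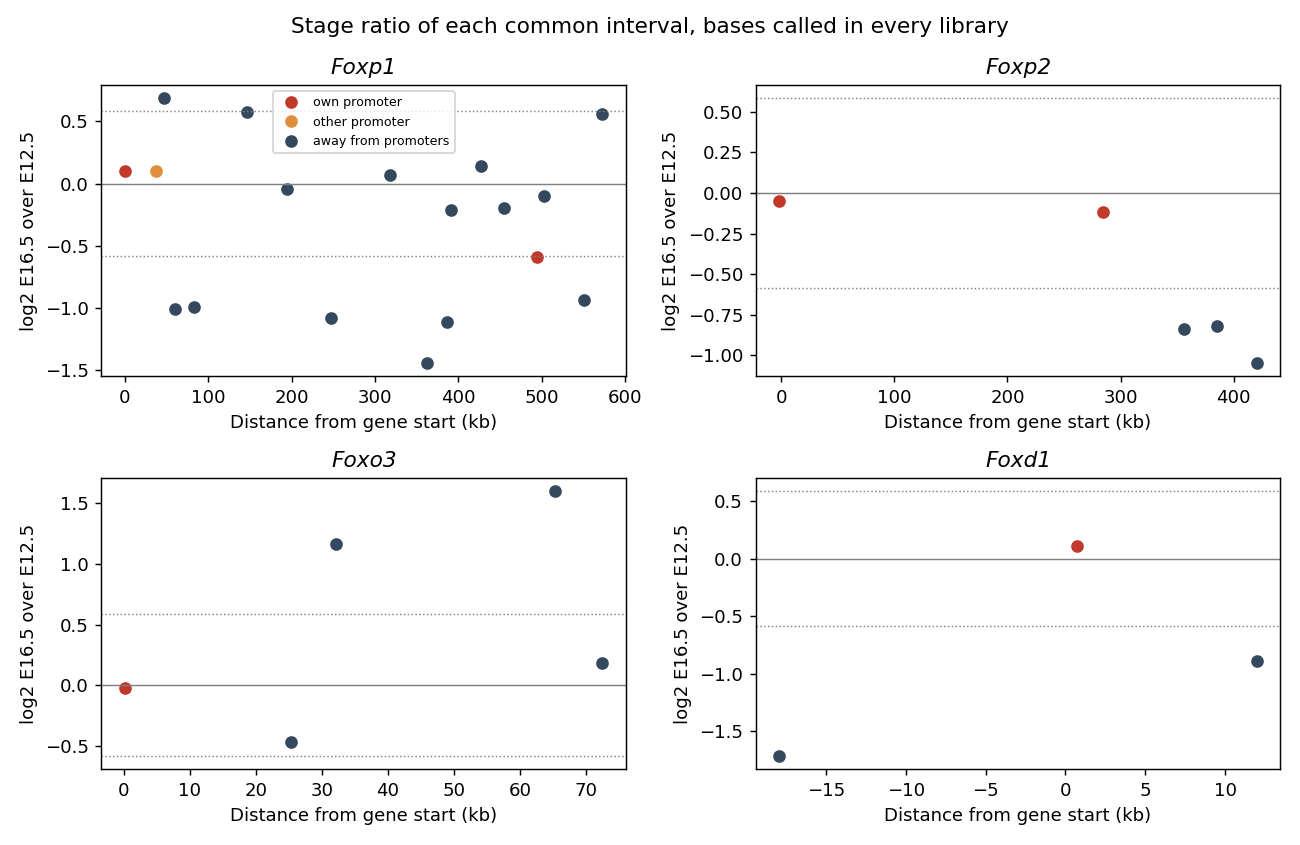
Log2 ratio of E16.5 over E12.5 (y axis) of each common interval with at least 10 CPM in some library, over the bases called in all 3 libraries, by distance from the gene start in kb (x axis), for Foxp1, Foxp2, Foxo3 and Foxd1. Dotted lines mark 1.5-fold. The promoters nearest the gene start lie near 0, while the Foxd1 element 17.9 kb upstream lies at -1.72.

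Called widths differed between libraries. Elements away from promoters were therefore kept when they had at least 10 CPM in some library and at least 300 bp called in all, and were counted when the CPM, the CPM over bases called in all libraries and the CPM per kb all passed 1.5-fold in the same direction. This rule was chosen after the values were seen. Counts were spread evenly within each peak. With 1 peak in each library, the last measures, over shared bases and per kb, therefore differ only by an amount fixed by the step. They are then not separate checks. For E16.5 over E12.5 the per kb value is then the lower, as at -1.91 beside -1.72 for the Foxd1 element. A rise thus had to be larger than a fall to pass. Of 32 such elements in the windows, 10 were lower at E16.5 and 2 were higher, beside 20.2% and 19.2% of 21322 elements. The filter lets an element in through the stage where it is high: of the 12, only the Foxp1 element at 551.0 kb, with 26.1 and 11.4 CPM, and the Foxp2 element at 420.3 kb reached 10 CPM at both E12.5 and E16.5. The counts are therefore a description of the elements that follow, and no direction of the loci is read from them. The 10 lower elements lay at Foxp1, Foxp2 and Foxd1, and both higher ones at Foxo3. Elements of 1 locus share their gene and are not independent.

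The Foxd1 element 17.9 kb upstream had 17.1, 8.40 and 2.66 CPM in stage order, a 6.43-fold fall with a log2 interval of -2.86 to -2.51. Part of that fall went with its called width, which was 940, 758 and 549 bp: the log2 ratio of E16.5 over E12.5 was -1.72 over the bases called in all libraries and -1.91 per kb. It was open in 2.17%, 1.03% and 0.31% of nuclei at matched depth. The Foxd1 promoter, given above, lay between 26.4 and 32.9 CPM.

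In Foxp1, 6 intronic elements were lower. They are named by distance from the outermost gene start, and some lay near internal Foxp1 start sites. The nearest start site was 2902 bp from the element at 362.6 kb, which lies beside the internal promoter at 359.6 kb given above. It was 4863 bp from the element at 82.5 kb and 9022 bp from that at 247.2 kb. The element at 362.6 kb went from 32.4 to 15.6 and 8.94 CPM, and from 3.52% to 1.68% and 0.87% of nuclei. The element at 387.0 kb went from 20.4 to 5.85 and 6.49 CPM, so its fall lay between the first and second library. All intervals away from promoters had a median log2 ratio of -0.36 over that step. The element at 247.2 kb had 15.6, 8.0 and 5.65 CPM. In Foxp2, the element at 420.3 kb went from 24.2 to 13.7 and 10.0 CPM, and that at 356.5 kb from 19.1 to 8.10 and 9.95 CPM. Over the bases called in all libraries, the log2 ratios of E16.5 over E12.5 were -1.44, -1.11 and -1.08 for these Foxp1 elements, in the order given, and -1.05 and -0.84 for those of Foxp2.

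At Foxo3, both counted elements were higher. The intronic element at 65.2 kb had 3.01, 11.9 and 16.9 CPM, a 5.61-fold rise with a log2 interval of 2.23 to 2.76. Part of that rise went with its called width, which was 1164, 1077 and 2451 bp: the log2 ratio was 1.60 over the bases called in all libraries and 1.41 per kb. It was open in 0.19%, 1.31% and 1.70% of nuclei. The element at 32.1 kb had 3.28, 9.68 and 10.3 CPM, and a log2 ratio of 1.17 over the bases called in all libraries. Meanwhile the Foxo3 promoter had 131.9, 160.4 and 115.2 CPM.

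**Figure D3:**
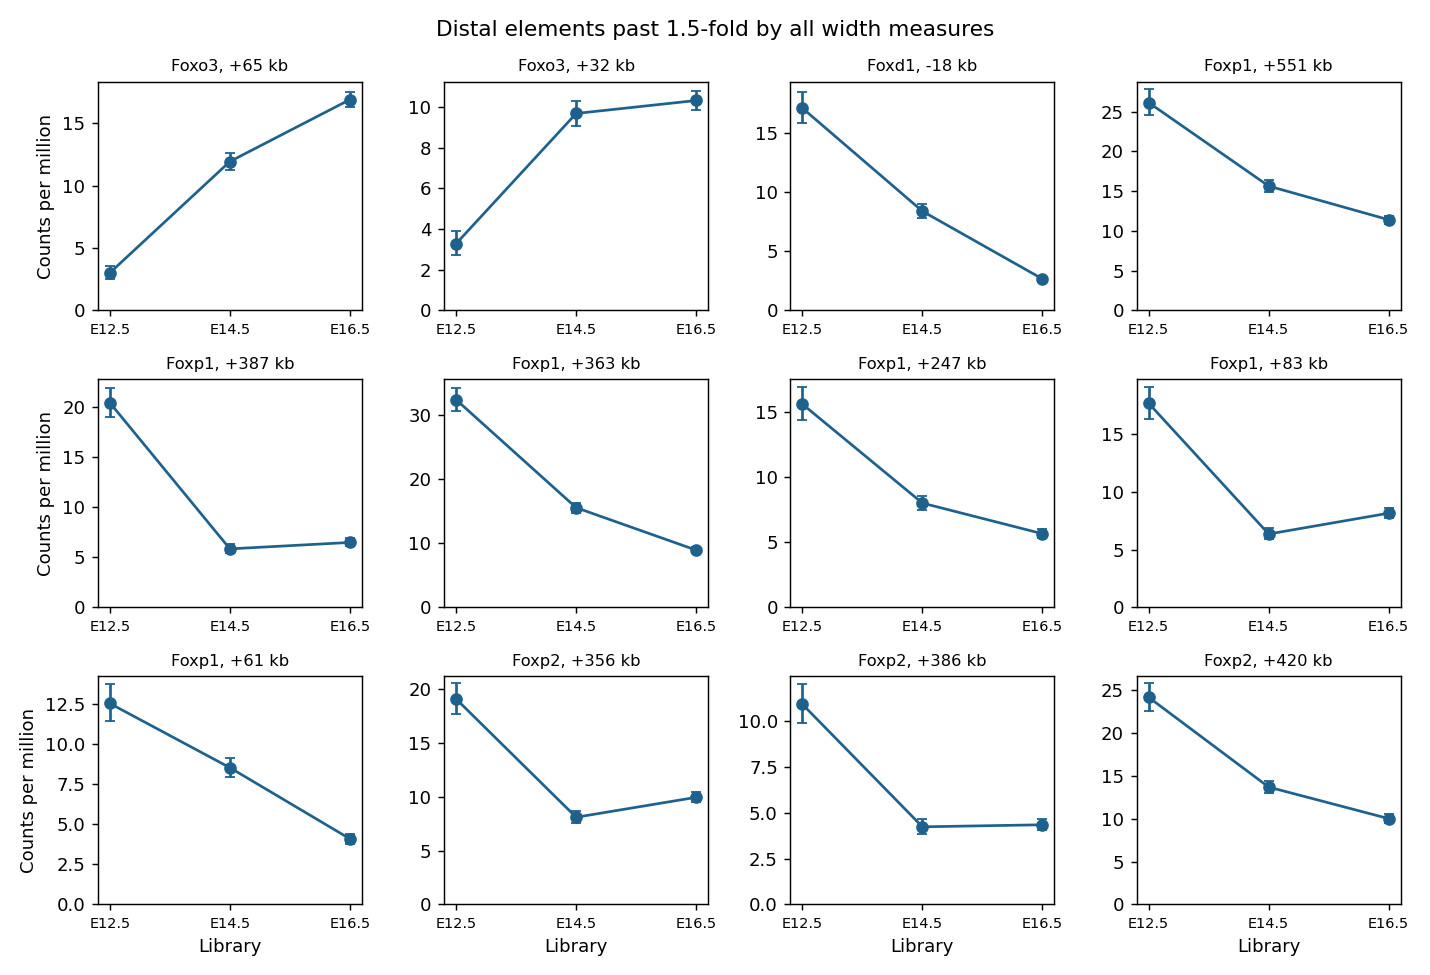
CPM (y axis, from 0, scaled by panel) in the 3 libraries (x axis) of the 12 distal elements past 1.5-fold by every width measure, titled by gene and distance from the gene start in kb. Error bars are 95% Poisson intervals. The 2 Foxo3 elements climb and the other 10 drop from E12.5 to E16.5.

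Within the E16.5 library, nuclei were gated on the fragments at panels of lineage genes, beyond what depth predicts, and the top 10% were compared with the rest. The chondrogenic gate, built on cartilage genes such as Col2a1 and Acan, was checked by genes outside the panel: Wwp2 had a log2 ratio of gate over rest of 2.03, Hapln1 of 1.90, Matn3 of 1.06 and Col11a2 of 1.001. The dermal fibrogenic gate gave 0.46 for Twist2, 0.45 for Lrig1, 0.44 for Irx3 and 0.64 for Irx5. The tenogenic gate gave 0.23 for Fmod, 0.25 for Kera and 0.11 for Thbs2. The fibrogenic gate gave 0.36 for Dpp4, 0.28 for Pi16, 0.25 for Sema3c and 0.08 for Col15a1. The pericyte gate gave 0.12 for Mcam, with an interval of 0.04 to 0.20, while Cspg4 at 0.00 and Notch3 at 0.01 had intervals that include 0. Promoter regions took a median of 46.1% of counts in chondrogenic-gated nuclei and 40.2% in the rest, and the part of this in the ratios was not tested.

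Foxc1 was the window most raised in the chondrogenic gate, with 149 fragments per 1000000 against 103 in the rest, a log2 ratio of 0.53 with an interval of 0.47 to 0.59. Foxc2 followed with 0.36. Foxd1 led in the dermal fibrogenic gate, with 55.0 against 40.1 fragments per 1000000 and a ratio of 0.45, with Foxf2 at 0.31 and Foxs1 at -0.23. None of the 10 windows passed 1.5-fold in the chondrogenic, tenogenic, fibrogenic, dermal fibrogenic or pericyte gate, where 6.85%, 1.18%, 1.52%, 5.56% and 0.673% of genes did in either direction. Over 5 gates and 3 libraries, 15 points that share libraries and nuclei, the pattern of Foxc2 was most like that of Foxf1, with r = 0.92; their windows share regions. Foxc1 was most like Foxc2, with r = 0.77, and Foxp1 and Foxp2 most like each other, with r = 0.70. Foxs1 had no close partner, its highest r being 0.14. These r rest partly on gates that their check genes did not all bear out. In the E12.5 library the tenogenic gate gave -0.32 for Kera and -0.02 for Fmod. The pericyte gate gave -0.16 for Notch3 there, and the fibrogenic gate -0.08 for Col15a1. At E14.5 the tenogenic gate gave -0.07 for Kera, the fibrogenic gate -0.06 for Sema3c and the pericyte gate -0.06 for Mcam. Some other check genes were positive, such as Dpp4 in the fibrogenic gate, at 0.20 at E12.5 and 0.21 at E14.5. The E12.5 value had an interval of -0.06 to 0.46, which includes 0. At E16.5, the pericyte gate was not borne out by Cspg4 and Notch3, given above.

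**Figure D4:**
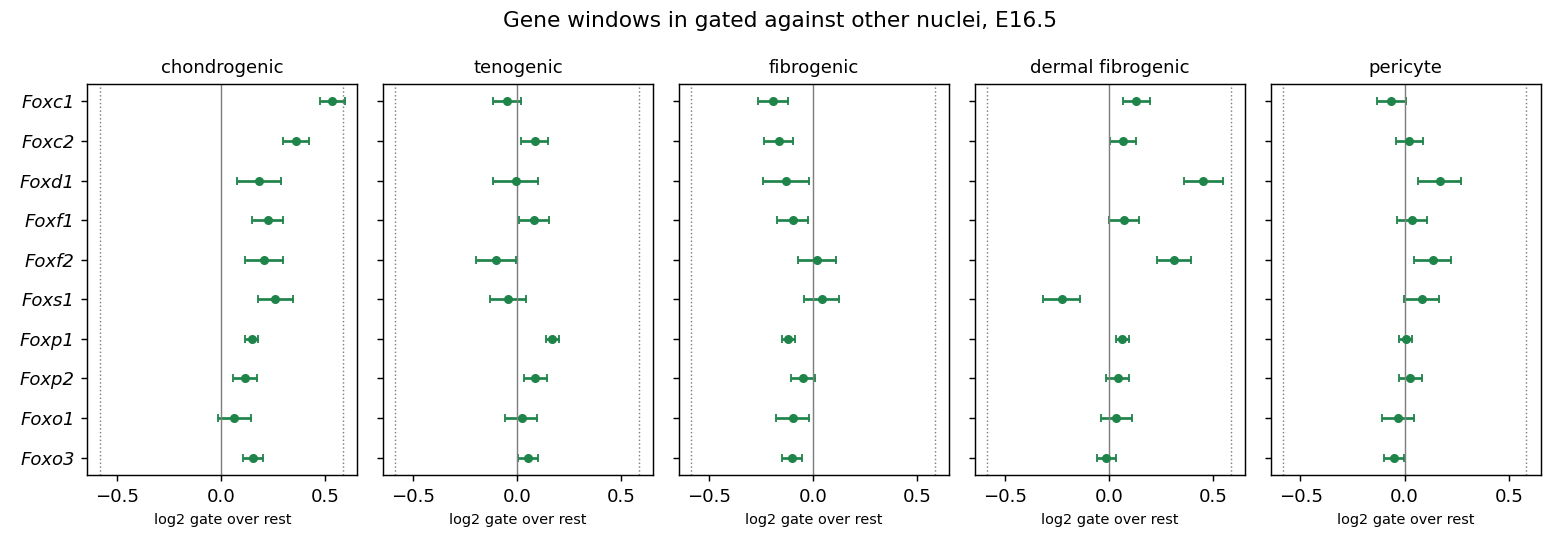
Log2 ratio of gated over other nuclei at E16.5 (x axis) for each gene window (y axis) in the 5 gates. Bars are 95% intervals from counting error and dotted lines mark 1.5-fold. Foxc1 in the chondrogenic gate lies furthest right, at 0.53.

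The same ratios were taken over single elements. Of the 32 elements, 5 were higher and 2 lower in the chondrogenic gate with an interval wholly beyond 1.5-fold, beside 30.7% of all such elements. In the tenogenic gate 4 were higher, beside 4.72%. In the fibrogenic gate 1 was lower, beside 5.86%, and in the dermal fibrogenic gate 4 were higher and 5 lower, beside 29.9%. None passed in the pericyte gate, beside 1.09%.

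Foxp1 held elements of several kinds. The element at 247.2 kb had a log2 ratio of 1.71 in the chondrogenic gate, from 259 fragments in gated nuclei. Common intervals of Foxp1 outside the elements kept had higher ratios there, the highest being 2.78 from 481 fragments in gated nuclei. The elements at 387.0 kb and 60.5 kb had 1.33 and 1.18 in the tenogenic gate, and the first of these had -1.57 in the dermal fibrogenic gate. The elements at 455.2 kb and 194.2 kb went the opposite way, with 0.77 and 0.76 in the dermal fibrogenic gate and -0.90 and -1.25 in the chondrogenic gate. Over the whole Foxp1 window the ratio was 0.17 in the tenogenic, 0.14 in the chondrogenic and 0.06 in the dermal fibrogenic gate. It was 0.01 in the pericyte and -0.12 in the fibrogenic gate.

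The Foxd1 upstream element was higher in the tenogenic gate, at 1.16 with an interval of 0.83 to 1.48, and in the dermal fibrogenic gate, at 0.92 with an interval of 0.57 to 1.25. It was lower in the pericyte gate, at -0.82 with an interval of -1.39 to -0.29, and in the fibrogenic gate, at -1.94 with an interval of -2.79 to -1.21. The latter rests on 15 fragments in gated nuclei. An element 2.6 kb upstream of Foxc2 had 0.94 in the chondrogenic gate and one 5.3 kb upstream of Foxc1 had 0.79. In Foxo3, the intronic element at 32.1 kb had 0.81 in the dermal fibrogenic gate, and that at 65.2 kb went the opposite way with -0.74 and an interval of -0.95 to -0.53. In Foxp2, the element at 385.7 kb had 1.02 there.

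**Figure D5:**
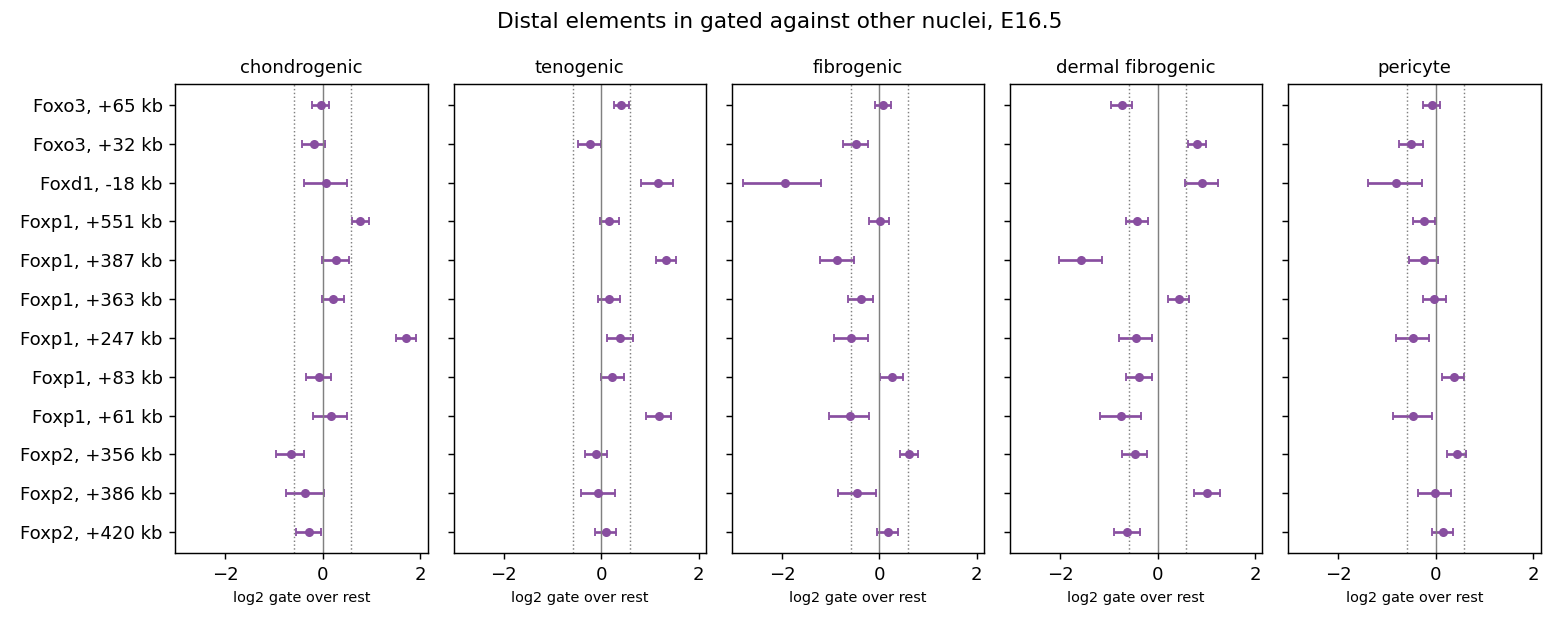
Log2 ratio of gated over other nuclei at E16.5 (x axis) for the 12 elements that moved between E12.5 and E16.5 (y axis, gene and distance from the gene start in kb). Bars are 95% counting intervals and dotted lines mark 1.5-fold. The Foxp1 element 247.2 kb from the start stands out in the chondrogenic gate at 1.71.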

How the data were processed

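Single-nucleus ATAC libraries were made by the authors with 10x Genomics reagents, and each sample was deposited as a matrix of counts of cut sites per peak and nucleus with its peak list; peaks were called by library. The submitters' notes name Cell Ranger ATAC 1.1.0 and bcl2fastq, while the matrix headers give software version 1.2.0 for the E16.5 library and 1.0.1 for the other two. Coordinates are mm10. Samples were grouped by labelled stage, with 1 library each and no test.

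Peaks were merged into regions by an overlap of 1 bp, in Python 3.11.15 with numpy 2.4.6, scipy 1.17.1 and pandas 2.3.3, and 82930 autosomal regions with a peak in all 3 libraries served as common intervals. Genes were taken from GENCODE vM21 basic, and a promoter was the 1000 bp before a start site and the 100 bp after it. Since cut sites come in pairs, intervals used fragments (cut sites over 2): exact Poisson for levels, exact binomial for shares and ratios, at 95%. They cover counting error only, and PCR and nuclei add more. Shares used nuclei thinned to 1074 fragments in common intervals, the 25th percentile at E12.5, which left out 2071, 0 and 252 nuclei. No doublet caller was run. A marker of the cell type lists is not reported here. Gates are the top 10% of nuclei by panel fragments beyond those predicted from depth. The scripts were tested on simulated data.

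The 10 genes, their gene lists and gates were chosen with earlier results of these data known. All 10 are named; of other forkhead genes, the 3 highest and 3 lowest; elements and promoters are named where they had most counts or changed most, and others were chosen after their values were seen. Promoter sequences of 6 of the 10 genes were matched in RefSeq GRCm38.p6. Alternatives covered scaling, width, window, promoters, binarised counts, depth and gate size.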

Additional observations from a re-analysis of the deposited data

Results flagged for a closer look

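Regions without a peak in every library enter no stage ratio, save where every peak of each library in a window was counted. In the forkhead windows, 68 of the 308 regions were called at E12.5 and E16.5 but not at E14.5. Of those called in 1 library alone, 2 reached 5 CPM, both at Foxp1 and both called at E12.5. The first lay in an intron 422.9 kb from the gene start, with 5.49 CPM. The other overlapped an exon 512.9 kb from it, with 5.20 CPM. A region with no peak has no deposited count, so the level in the other libraries is not known.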

How the results depend on the processing

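With 1 library a stage there are no replicates to leave out, and no paired analysis was possible because each stage has a single library. The count of windows past 1.5-fold for E14.5 over E12.5 was 1; it was 0 over bases called in all 3 libraries, over peaks of matched position, with 50000 bp on either side and over promoter regions only, 3 over regions away from promoters (Foxo1, 1.18; Foxf1, -0.74; Foxd1, -0.61) and 5 per kb of called width, where the Foxs1 log2 ratio turned to 0.26. For E16.5 over E14.5 the count of 0 became 9 per kb of called width, 1 with the gene body plus 2000 bp upstream (Foxs1) and 1 over regions away from promoters (Foxd1). For E16.5 over E12.5 the count of 0 became 1 per kb of called width (Foxd1) and 3 over regions away from promoters (Foxd1, -1.28; Foxo1, 1.02; Foxo3, 0.88). Called widths differed between the libraries, and per kb values carry that difference. They were not rescaled to a library total, so an interval with little change can pass 1.5-fold. For E16.5 over E14.5, the Foxo1 promoter had -0.05 over bases called in all libraries but -0.62 per kb. The counts per kb are therefore not read as changes of the windows. In share of nuclei the count of 0 became 1 with the gene body plus 2000 bp upstream, and in the chondrogenic gate it became 1 with a gate of 5% (Foxc1, 0.73). Shares of all genes past 1.5-fold are given here for the main settings alone. Whether the counts of windows under the alternatives differ from those shares of all genes was not tested. The share of regions with a peak of every library was 24.6% by reciprocal overlap of 50%, counted over E12.5 peaks, beside 26.8% of all E12.5 peaks. Of single-window stage ratios under the alternatives, 127 stayed within their counting interval, 232 left it and 1 turned direction after a call. A change of sign without a call was not counted as a turn. Foxf1 for E14.5 over E12.5, for example, went from -0.11 to 0.15 over bases called in all libraries. Of gate ratios, 170 stayed within their interval and 30 left it. The spread between embryos is not measured at any depth.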
